A study of Mus musculus with 32 samples.

Results

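The liver transcriptomes of wild type (WT) female C57BL/6 mice (C57Bl/6J in the study's methods) on 2 diets were compared. The 8 libraries were taken by their labels as WT, female and kept on normal chow (ND, 4 libraries) or on CDAHFD (4 libraries), and they are 8 of the 32 libraries in the series. CDAHFD is a high fat diet without choline in which defined L-amino acids replace protein, with 62% fat and 0.1% methionine. The study asked how fatty liver disease caused by this diet depends on the Cyp2b genes, and its other libraries come from Cyp2b-null females and from males of both genotypes on the same diets. All mice were 10 weeks old at the start and ate their diet for 8 weeks, and the WT mice carried intact Cyp2b genes. The diets differ in fat, carbohydrate, choline, methionine and protein source together, so the parts of the diet cannot be told apart. The labels do not say whether each library came from a separate mouse, and p-values then measure the spread between libraries. For the diet comparison this spread was estimated over the female libraries of both genotypes, which were fitted together, and so rests partly on the Cyp2b-null females.

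Choline is needed to make phosphatidylcholine, the phospholipid that coats the lipoprotein particles in which hepatocytes export triglyceride, and methionine supplies the methyl groups for the other route to it. Rodents fed without choline and with little methionine accumulate fat in hepatocytes, and macrophages and collagen-producing cells then increase. Hepatocytes make most of the RNA in the liver, among it the RNA of plasma proteins, of lipid and bile acid synthesis and of the cytochrome P450 (Cyp) enzymes that oxidize drugs and steroids. In bulk liver, fewer cells of a type and less RNA per cell cannot be told apart.

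Total counts on genes were 3035683 to 6433420 in the ND libraries and 3615027 to 5455002 in the CDAHFD libraries. Values are CPM, the counts of a gene scaled to a common library size, after TMM scaling, and a count of 3 in 1 library corresponds to 0.519 to 1.17 CPM on ND and 0.483 to 0.728 CPM on CDAHFD. Changes are log2 fold changes of CDAHFD over ND with their standard error (SE) from edgeR's quasi-likelihood test, adjusted over all genes tested, and genes were called where that adjusted p was under 0.05. Xist, the RNA of the inactive X chromosome, had 1287 to 4033 counts on ND and 1418 to 3497 on CDAHFD, and the Y-linked Ddx3y had at most 1 count, so the libraries matched their label as female. The 10 most abundant genes took 20.7 to 24.6% of the counts on ND and 19.2 to 20.5% on CDAHFD. All 8 hepatocyte markers were among the genes tested, and the adipocyte hormone Adipoq had at most 1 count in any library, while 7 of 9 pancreatic acinar markers were at 0.

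The 2 diets separated on the first principal component of the 500 most variable genes, which held 78.4% of their variance, and the next held 7.69%. Of 13226 genes tested, 3193 (24.1%) were called, 1838 of them higher on CDAHFD (13.9%) and 1355 lower (10.2%). A change of more than 1 on the log2 scale was reached by 1478 called genes (11.2%), of which 1101 were higher (8.32%) and 377 lower (2.85%). For 3414 genes (25.8%) the 4 CDAHFD libraries did not overlap with the 4 ND libraries, and 2650 of these were also called. The split depended on the scaling. With library size alone the median gene lay 0.32 higher on CDAHFD on the log2 scale, and 3910 genes were called higher and 491 lower, so the directions here are relative to the median gene after TMM scaling.

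Most of the abundant genes fell. Of 106 genes that averaged 1000 CPM or more over the 8 libraries, 6 rose and 60 fell (56.6%), with a median log2 change of -0.50. Between 1 and 3 CPM, 273 of 1454 genes rose (18.8%) and 41 fell. A gene that low on average can pass the filter through the libraries of 1 diet alone, so the filter can set its direction. In log2 CPM the CDAHFD libraries were also more alike than the ND libraries. The median SD of log2 CPM was 0.24 on CDAHFD and 0.29 on ND, and 38.1% of the genes had the larger SD on CDAHFD. ND replicates 2 and 3 had the lowest totals of the 8 libraries, 3035683 and 3273055 counts. The part of depth in this spread was not tested.

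**Figure D1:**
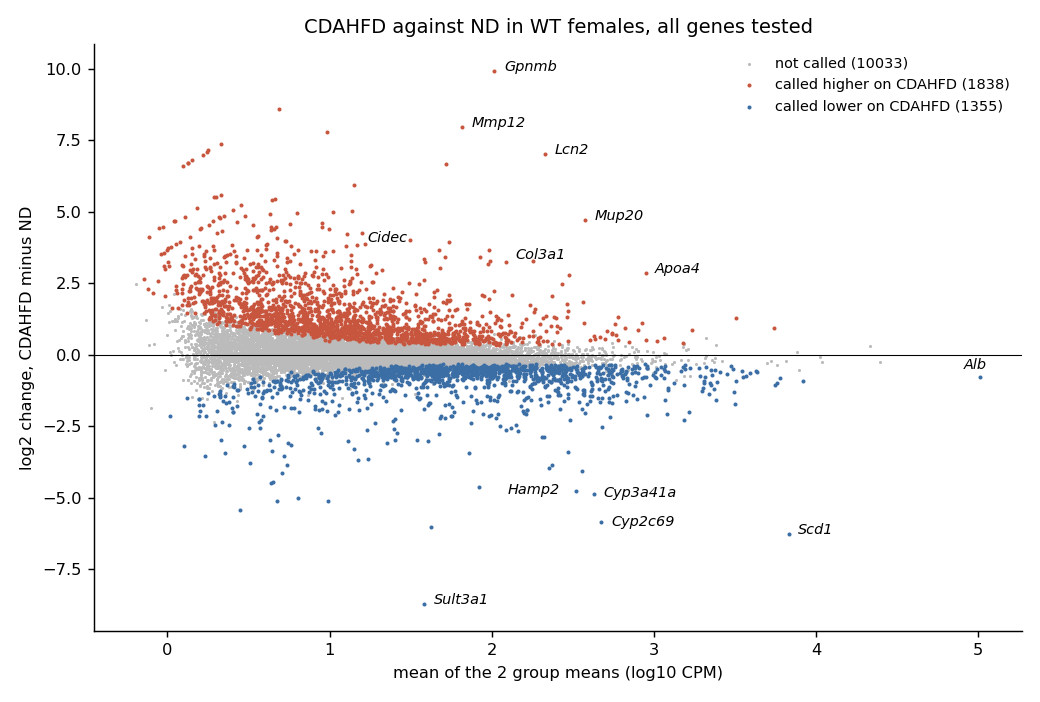
Each of the 13226 tested genes by the mean of its 2 group means (horizontal axis, log10 CPM) and its log2 change, CDAHFD minus ND (vertical axis), with the 1838 genes called higher in red, the 1355 called lower in blue and the rest in grey. Red points spread upwards at low expression, and at the right, where abundant genes such as Alb and Scd1 lie, most called genes are blue. The heights of genes with 0 counts on 1 diet depend on the prior count of the fit.

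Gpnmb, Mmp12, Adam8, Lcn2, Chil3 and Sprr1a were among the 10 largest rises. Gpnmb, a membrane glycoprotein of macrophages that have taken up lipid, had 0, 2, 0 and 1 counts in the ND libraries and 146, 195, 298 and 191 CPM in the CDAHFD libraries. Its level on ND was at the floor of detection, and the ratio of the pooled values was 1130.1 (95% exact interval 386 to 5482). Mmp12, the macrophage elastase, stood at 0.4, 0, 1.36 and 0.346 CPM on ND and at 115, 152, 128 and 128 CPM on CDAHFD (log2 change 7.97, SE 0.33, adjusted p = 1.32e-12). The CDAHFD libraries lay close together for both genes and far above every ND library. Adam8, a membrane protease of leukocytes, had 1 count over all ND libraries and 12.9, 18.7, 17.6 and 27.6 CPM on CDAHFD. Lcn2, which binds the iron carriers of bacteria and is made by injured hepatocytes, stood at 1.80, 2.34, 5.42 and 3.64 CPM on ND and at 137, 292, 207 and 1046 CPM on CDAHFD (log2 change 7.02, SE 0.61, adjusted p = 5.66e-08), with CDAHFD replicate 4 far above the other libraries of that diet. Chil3, a lectin of monocytes and macrophages, had 0 counts in every ND library and 1.56, 3.15, 2.05 and 7.57 CPM on CDAHFD, and was at least 4.34-fold higher there.

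Sprr1a, a cross-linked protein of stressed epithelium, had 0 counts in all 4 ND libraries and 29, 28, 29 and 124 counts in the CDAHFD libraries, or 6.47, 6.79, 5.94 and 19.98 CPM. It was at least 11.9-fold higher on CDAHFD, and replicate 4 was again the highest. Its upstream sequence is printed because it holds more than 1 match to the AP-1 motif, the letters TGANTCA searched on both strands, which is bound by the Jun and Fos factors. It covers chr3:92485882-92486131 on the minus strand (RefSeq, GRCm38.p6), with the motif in capitals. The matches begin 146 and 116 bases before the start of the gene.

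Sprr1a: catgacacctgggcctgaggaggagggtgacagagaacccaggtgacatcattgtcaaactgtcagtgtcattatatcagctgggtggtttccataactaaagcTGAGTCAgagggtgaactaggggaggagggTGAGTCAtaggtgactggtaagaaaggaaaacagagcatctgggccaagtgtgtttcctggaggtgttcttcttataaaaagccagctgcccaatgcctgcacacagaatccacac

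Among all 27025 promoters, 6.87% held this motif in the 250 bases before the start. The share was 7.31% for genes called higher, 5.11% for genes called lower and 4% for tested genes that were not called. The other largest rises were Vsig8, Fam83a and the unnamed loci Gm35546 and AI314278, which had 0 counts in every ND library and were at least 5.19, 4.02, 4.23 and 3.45-fold higher. In all, 43 genes had at most 3 counts in every ND library and at least 10 in every CDAHFD library, and 4 of them had 0 counts on ND. The reverse held for Sult3a1 and Lrit2, which were chosen here for that pattern. None of the 43 genes passed the filter by its ND libraries, so that their direction was set by the filter. Among them are Gpnmb, Ccl2, Ccl4, Adam8, Mmp13, Timp1, S100a8, Ccnb2 and Aurkb, which count as rises in the lists below. Mthfd2, Tnc, Phlda3 and Bhlhe41, named below, were also low on ND. They passed the filter through the CDAHFD libraries, so the filter favoured their rise.

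The 10 largest falls included Scd1, Sult3a1, Cxcl13, Pnpla3 and Hamp2. Scd1, which makes monounsaturated fatty acids, stood at 9877, 7409, 14653 and 21526 CPM on ND and at 145, 219, 139 and 182 CPM on CDAHFD (log2 change -6.29, SE 0.38, adjusted p = 3.09e-10). The lowest ND library was above the highest CDAHFD library by more than an order of magnitude. Sult3a1, a sulfotransferase, stood at 53.4, 104, 51.2 and 94.9 CPM on ND and had 0, 1, 1 and 1 counts on CDAHFD, and the pooled ratio of ND over CDAHFD was 497 (95% exact interval 169.7 to 2414). Cxcl13, the chemokine that attracts B cells, had 8.80, 7.79, 1.36 and 3.98 CPM on ND and at most 1 count in any CDAHFD library, with a pooled ratio of 55.00 (95% exact interval 14.8 to 461). Pnpla3, a lipid droplet protein whose human form is tied to fatty liver, had 6.60, 1.17, 11.5 and 17.8 CPM on ND and 3, 1, 0 and 1 counts on CDAHFD, with a pooled ratio of 41.8 (95% exact interval 17.6 to 130.4). Sult2a7, another sulfotransferase, fell from 18.9 ± 5.56 to 0.562 ± 0.491 CPM (SD, n = 4; log2 change -5.11, SE 0.45, adjusted p = 8.31e-08), and the unnamed locus Gm40794 from 12.5 ± 5.57 to 0.341 ± 0.346 CPM (log2 change -5.02, adjusted p = 4.38e-06). Reads of the Sult2a and Cyp3a families may be split between near-identical copies, so their single values are uncertain.

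**Figure D2:**
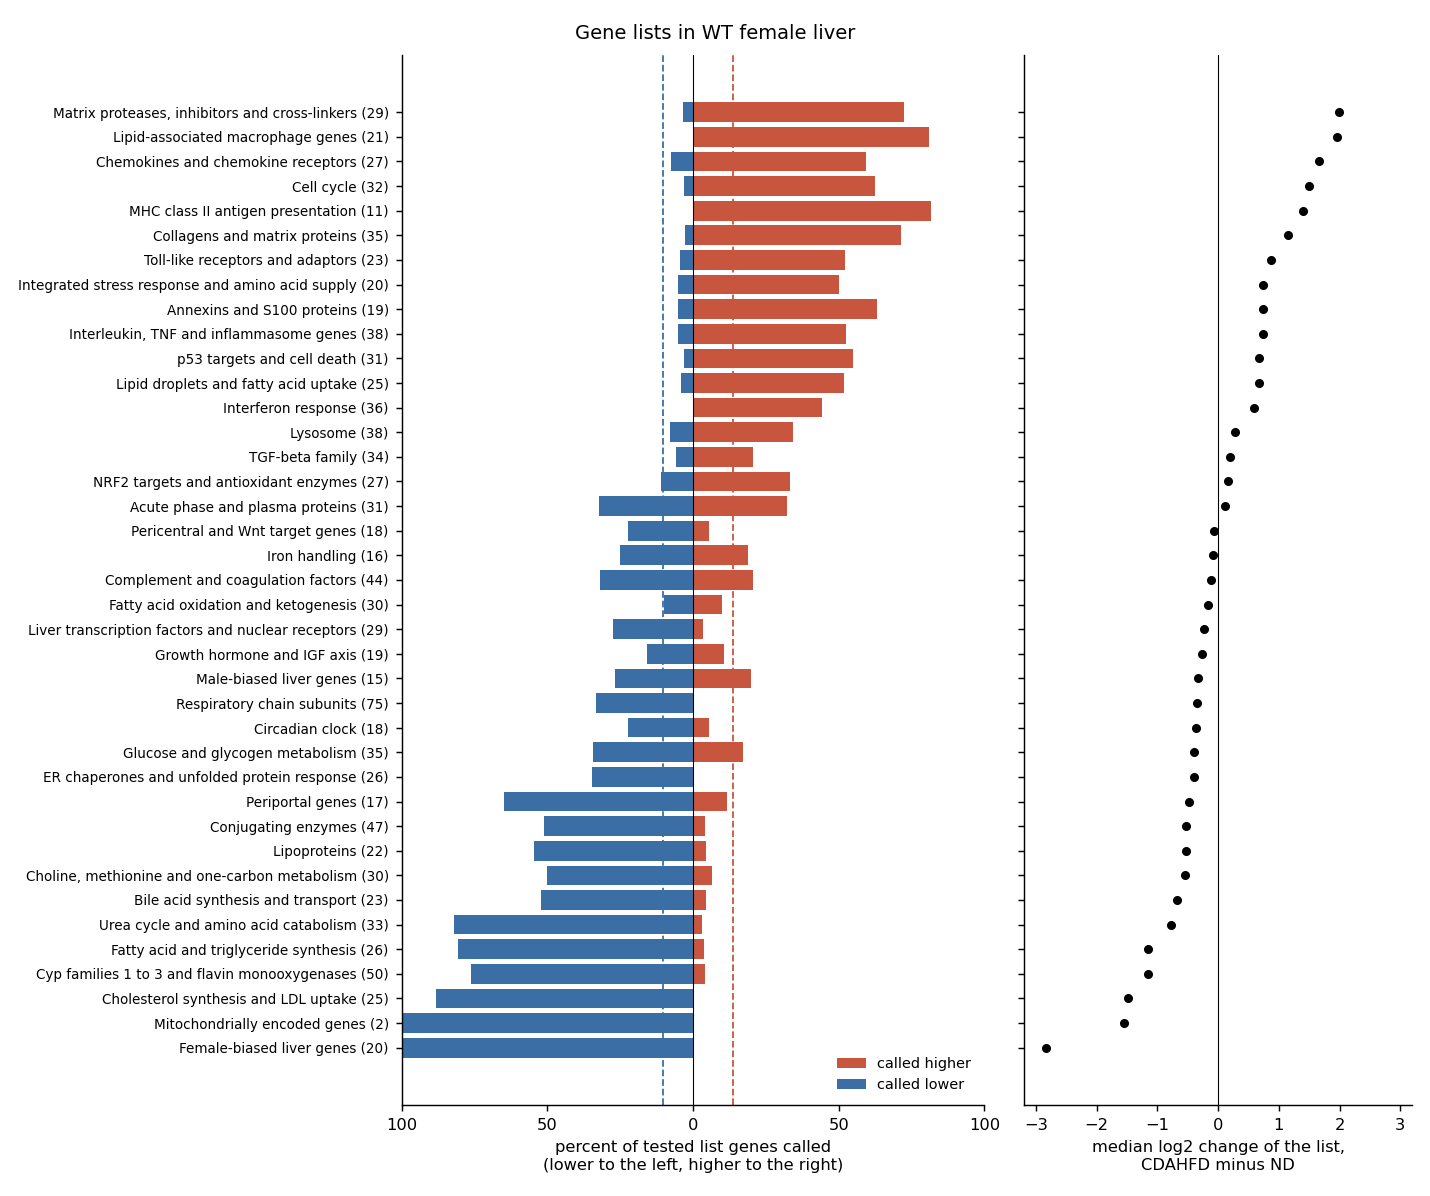
The left panel gives for each gene list (number tested in brackets) the percent of tested genes called higher (red bars) and lower (blue bars), with dashed lines at the shares over all genes, 13.9% and 10.2%, and the right panel its median log2 change, CDAHFD minus ND. Lists are ordered by that median, from 1.99 for matrix proteases, inhibitors and cross-linkers to -2.84 for female-biased liver genes.

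The genes of fatty acid and triglyceride synthesis, most of them targets of SREBP1 and ChREBP, fell together. Of 26 tested, 21 fell and 1 rose, with a median log2 change of -1.15 against -0.0021 over all genes. Fasn, the fatty acid synthase, stood at 629, 309.8, 812 and 1531 CPM on ND and at 185, 105, 177 and 97.00 CPM on CDAHFD (log2 change -2.54, SE 0.34, adjusted p = 1.12e-05). The ND libraries spread over a wide range and none overlapped with the CDAHFD libraries. Of the desaturases, Scd2 (0.29, adjusted p = 0.465) and Fads2 (0.23, adjusted p = 0.471) were not called, though Fads2 was with library size alone (adjusted p = 0.0446). Of the enzymes of triglyceride assembly, Dgat1 (-0.24, adjusted p = 0.312) and Lpin2 (-0.36, adjusted p = 0.31) were not called. Scd2, Fads2, Dgat1 and Lpin2 were the only 4 members tested but not called. Elovl1, which elongates very long saturated chains, was the gene that rose, from 31.8 ± 8.23 to 51.3 ± 7.98 CPM (log2 change 0.68, SE 0.17, adjusted p = 0.00586). Srebf1, the gene of the SREBP1 factor itself, fell by 0.82 on the log2 scale (adjusted p = 0.00353). Scd2, Fads2, Dgat1, Lpin2 and Srebf1 were named after their values were seen.

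Genes of cholesterol synthesis and LDL uptake, the targets of SREBP2, fell as well. Of 25 tested, 22 fell and 0 rose, with a median log2 change of -1.49. The largest fall was that of Tm7sf2, a sterol reductase, which stood at 201, 129, 258 and 313 CPM on ND and at 46.6, 33.96, 46.3 and 26.1 CPM on CDAHFD (log2 change -2.56, SE 0.25, adjusted p = 2.27e-07), without overlap. Mvk (-0.55, adjusted p = 0.259) and Srebf2, the gene of the SREBP2 factor (-0.43, adjusted p = 0.134), were among the 3 members not called, and were named after their values were seen. Mvk was called without a low-count filter (adjusted p = 0.0149) or without ND replicate 2 (adjusted p = 0.0258), and Srebf2 without a low-count filter (adjusted p = 0.0448) or without CDAHFD replicate 3 (adjusted p = 0.016).

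Genes of lipid droplets and fatty acid uptake moved the other way. Of 25 tested, 13 rose and 1 fell, with a median log2 change of 0.67. Cidec, which fuses droplets into larger ones, stood at 1.40, 1.95, 2.71 and 1.90 CPM on ND and at 27.2, 19.9, 11.1 and 52.4 CPM on CDAHFD (log2 change 3.85, SE 0.47, adjusted p = 4.51e-06). Plin2, the common droplet coat protein of hepatocytes, was at 405, 573, 366 and 316 CPM on ND and 664, 654, 556 and 899 CPM on CDAHFD (log2 change 0.74, SE 0.22, adjusted p = 0.019), where 1 ND library lay above the lowest CDAHFD library, and its call was lost when the fit was repeated without ND replicate 3 or 4 or CDAHFD replicate 4 (adjusted p = 0.0573 to 0.0817), 1 library at a time here and in the other such refits. Plin4, another coat protein (log2 change 3.49, adjusted p = 4.11e-06), and Lpl, the lipase that releases fatty acids from lipoproteins (3.28, adjusted p = 3.09e-10), also rose and were named after their values were seen. Pparg, the nuclear receptor of fat storage, rose from 11.7 ± 0.469 to 22.9 ± 3.08 CPM (log2 change 0.96, SE 0.17, adjusted p = 0.000206). The exception was Vldlr, the VLDL receptor, which fell from 20.8 ± 5.88 to 5.58 ± 1.60 CPM (log2 change -1.92, SE 0.34, adjusted p = 0.000239). Plin1, the coat protein of fat cells, had at most 1 count in any library and was not tested.

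Of 22 lipoprotein genes, 12 fell and 1 rose (median log2 change -0.52). Mttp, which loads lipid onto apolipoprotein B, stood at 354, 399.8, 344 and 349 CPM on ND and at 243, 181, 222 and 214 CPM on CDAHFD (log2 change -0.75, SE 0.15, adjusted p = 0.000622). Apob itself was at 5718 ± 920.4 and 4887 ± 669 CPM and was not called (-0.23, adjusted p = 0.323). Apoa4 was the gene that rose, from 202, 189, 222 and 244 CPM on ND to 1118, 826, 857 and 3438 CPM on CDAHFD (log2 change 2.86, SE 0.37, adjusted p = 8.47e-06), with CDAHFD replicate 4 far above the other libraries.

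**Figure D3:**
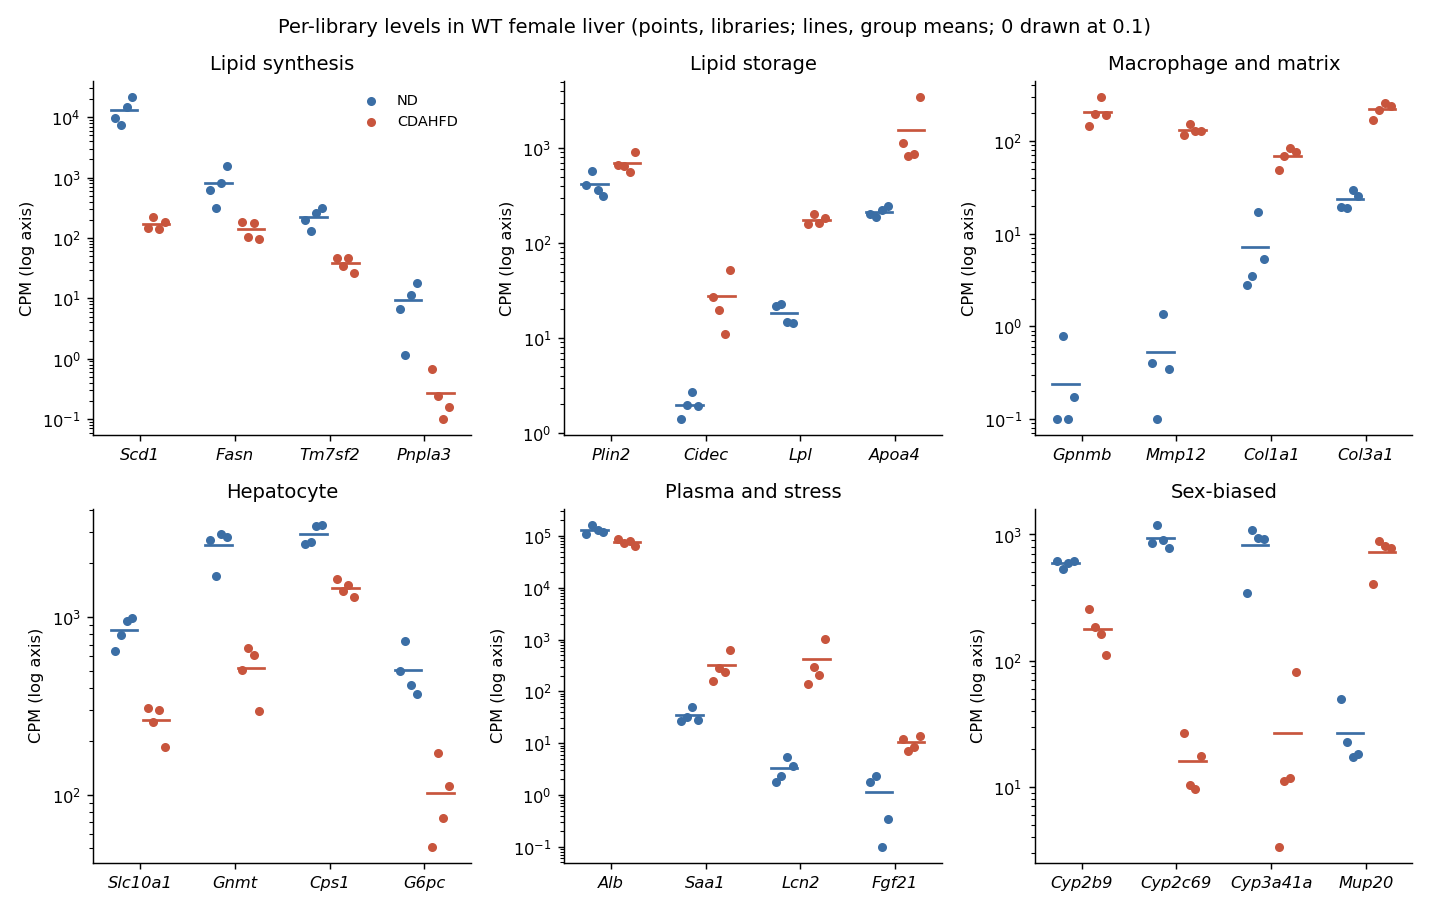
CPM (log axis, 0 drawn at 0.1) of named genes in the 4 ND (blue) and 4 CDAHFD (red) libraries, with 1 point per library, in replicate order, and a line at the group mean. Scd1, Fasn, Tm7sf2 and Pnpla3 are lower in every CDAHFD library than in every ND library, Gpnmb, Mmp12 and Cidec are higher in every one, Plin2 overlaps, and CDAHFD replicate 4 is the highest red point for Apoa4, Saa1, Lcn2 and Cyp3a41a.

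Of 23 genes of bile acid synthesis and transport, 12 fell and 1 rose (median -0.67). Slc10a1, the uptake carrier of the blood side, stood at 644, 790.2, 952 and 989 CPM on ND and at 309, 257, 300.5 and 187 CPM on CDAHFD (log2 change -1.68, SE 0.17, adjusted p = 3.21e-07), and Abcb11, the export pump, at 1019.7 ± 147 and 522 ± 58.4 CPM (log2 change -0.97, SE 0.15, adjusted p = 7.28e-05). Cyp7a1, the rate-limiting enzyme of the classic synthesis route, was at 57.6, 99.8, 96.6 and 172 CPM on ND and 127, 60.9, 213 and 76.7 CPM on CDAHFD. These ranges overlapped fully, the change was not called (0.16, adjusted p = 0.835), and its sign changed without single libraries. Fatty acid oxidation and ketogenesis were near the background, with 3 of 30 genes higher and 3 lower. Bdh1, an enzyme of ketone bodies, rose from 333 ± 51.8 to 525 ± 65.7 CPM (log2 change 0.66, SE 0.15, adjusted p = 0.00252), and Acaa2, a thiolase, fell from 885 ± 92.3 to 635 ± 97.4 CPM (log2 change -0.48, SE 0.14, adjusted p = 0.0187). The call of Cpt1a, which carries fatty acids into mitochondria (0.61, adjusted p = 0.0329), was lost without ND replicate 1, 3 or 4 or CDAHFD replicate 1, 2 or 4 (adjusted p = 0.062 to 0.121), and that of Acaa2 without ND replicate 2 or 4 or CDAHFD replicate 4 (adjusted p = 0.05 to 0.0757) and with library size alone (adjusted p = 0.381).

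Of 30 tested genes of choline, methionine and one-carbon metabolism, 15 fell and 2 rose (median -0.55), and 11 were called with library size alone. Gnmt, which disposes of surplus methyl groups, stood at 2716, 1689, 2929 and 2823 CPM on ND and at 501, 671, 609.8 and 295 CPM on CDAHFD (log2 change -2.29, SE 0.27, adjusted p = 2.59e-06). Mthfd2, a mitochondrial folate enzyme, rose from 0.85 ± 0.412 to 5.42 ± 1.40 CPM (log2 change 2.63, SE 0.44, adjusted p = 0.000123). Pemt, which makes phosphatidylcholine by methylation, was at 409.9, 317, 456 and 449.5 CPM on ND and 338, 276, 274 and 296 CPM on CDAHFD, close to the limit and not called (log2 change -0.46, SE 0.17, adjusted p = 0.0543). It was called by DESeq2 (adjusted p = 0.0416), without a low-count filter (adjusted p = 0.022) and with only the 8 libraries compared (adjusted p = 0.03), and without ND replicate 2 or CDAHFD replicate 1 (adjusted p = 0.0224 to 0.0456). Bhmt, which remethylates homocysteine with betaine from choline, was at 857, 1019.8, 2968 and 2873 CPM on ND and 831, 1358, 1316 and 1051 CPM on CDAHFD (-0.76, adjusted p = 0.118), and the ND libraries fell into a lower and a higher pair. Bhmt was called without a low-count filter (adjusted p = 3.98e-05) and without ND replicate 1 or 2 (adjusted p = 0.0319 to 0.0451).

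Of the 50 tested genes of Cyp families 1 to 3 and of flavin monooxygenases, 38 fell and 2 rose (median -1.15). The 3 Cyp2b genes that the other genotype lacks fell. Cyp2b10 stood at 78.2, 74.04, 72.2 and 65.1 CPM on ND and at 14.7, 7.28, 4.30 and 9.67 CPM on CDAHFD (log2 change -3.0, SE 0.28, adjusted p = 1.6e-07). Cyp2b9 went from 589.7 ± 37.7 to 179 ± 60.9 CPM (log2 change -1.72, SE 0.20, adjusted p = 1.96e-06) and Cyp2b13 from 381 ± 41.1 to 144 ± 65.8 CPM (log2 change -1.40, SE 0.24, adjusted p = 0.000273), and these 3 genes may share reads. Cyp1b1, a Cyp of stromal cells, rose from 1.05 ± 0.764 to 3.03 ± 0.797 CPM (1.75, adjusted p = 0.0153), a call that was lost without ND replicate 1 or 4 or CDAHFD replicate 4 (adjusted p = 0.0572 to 0.0721). Of 47 conjugating enzymes 24 fell and 2 rose (median -0.52), among them Ugt1a1, the bilirubin transferase (-0.72, adjusted p = 0.0187), and Gsta1, a glutathione transferase that rose from 1.37 ± 1.17 to 19.6 ± 5.77 CPM (log2 change 3.62, SE 0.44, adjusted p = 4.37e-06). The call of Ugt1a1 was lost without ND replicate 2 or CDAHFD replicate 2 or 4 (adjusted p = 0.0575 to 0.0697) and with library size alone (adjusted p = 0.192).

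All 20 genes known as female-biased in mouse liver fell, with a median log2 change of -2.84. In 18 of them the diets did not overlap. Over all genes tested, 10.2% were called lower and 25.8% did not overlap. The female-biased list was chosen with earlier results of these data known. Growth hormone, whose pulses differ between the sexes, is known to set the level of most female-biased genes. Cyp2c69 stood at 857, 1192, 897 and 786 CPM on ND and at 26.5, 10.4, 9.63 and 17.4 CPM on CDAHFD (log2 change -5.86, SE 0.36, adjusted p = 3.09e-10), Cyp3a16 at 24.2, 81.8, 137 and 88.1 CPM and 2.01, 0.97, 0.615 and 1.29 CPM (log2 change -6.04, SE 0.61, adjusted p = 4.38e-07), and Cyp3a41a at 344, 1082, 939 and 926 CPM and 3.35, 11.2, 11.7 and 81.4 CPM (log2 change -4.89, SE 0.80, adjusted p = 0.00011). The CDAHFD libraries spread widely for Cyp3a41a, with replicate 4 the highest and replicate 1 the lowest. Cux2, a repressor made in female liver, fell from 40.9 ± 22.7 to 8.46 ± 5.94 CPM (log2 change -2.32, SE 0.48, adjusted p = 0.00111). A1bg, a plasma protein of female mice, had CDAHFD replicate 4 within the ND range, and its call (-1.64, adjusted p = 0.0296) was lost without ND replicate 2 or 3 or CDAHFD replicate 1, 2 or 3 (adjusted p = 0.0552 to 0.0848), by DESeq2 (adjusted p = 0.0719) and with library size alone (adjusted p = 0.0622).

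Of the 15 tested male-biased genes 3 rose and 4 fell. Their median was -0.34, and it ran from -0.56 without CDAHFD replicate 3 to -0.078 without CDAHFD replicate 2. Mup20, a pheromone-binding urinary protein of males, stood at 49.6, 22.6, 17.3 and 18.2 CPM on ND and at 404, 889.9, 814 and 778 CPM on CDAHFD (log2 change 4.72, SE 0.31, adjusted p = 8.22e-10). C6, a complement protein, and Selenbp2, a selenium-binding protein, also rose (2.27, adjusted p = 1.26e-05 and 2.22, adjusted p = 1.92e-05, both named after their values were seen), while Cyp2c29 fell from 1962 ± 87.8 to 460.3 ± 154 CPM (log2 change -2.09, SE 0.18, adjusted p = 4.58e-08). Cyp2d9, a male-biased steroid hydroxylase, was at 30.9 ± 4.004 and 41.5 ± 24.7 CPM and not called (0.42, adjusted p = 0.392). Reads of the Mup, Cyp2c and Cyp2d families may be split between copies.

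**Figure D4:**
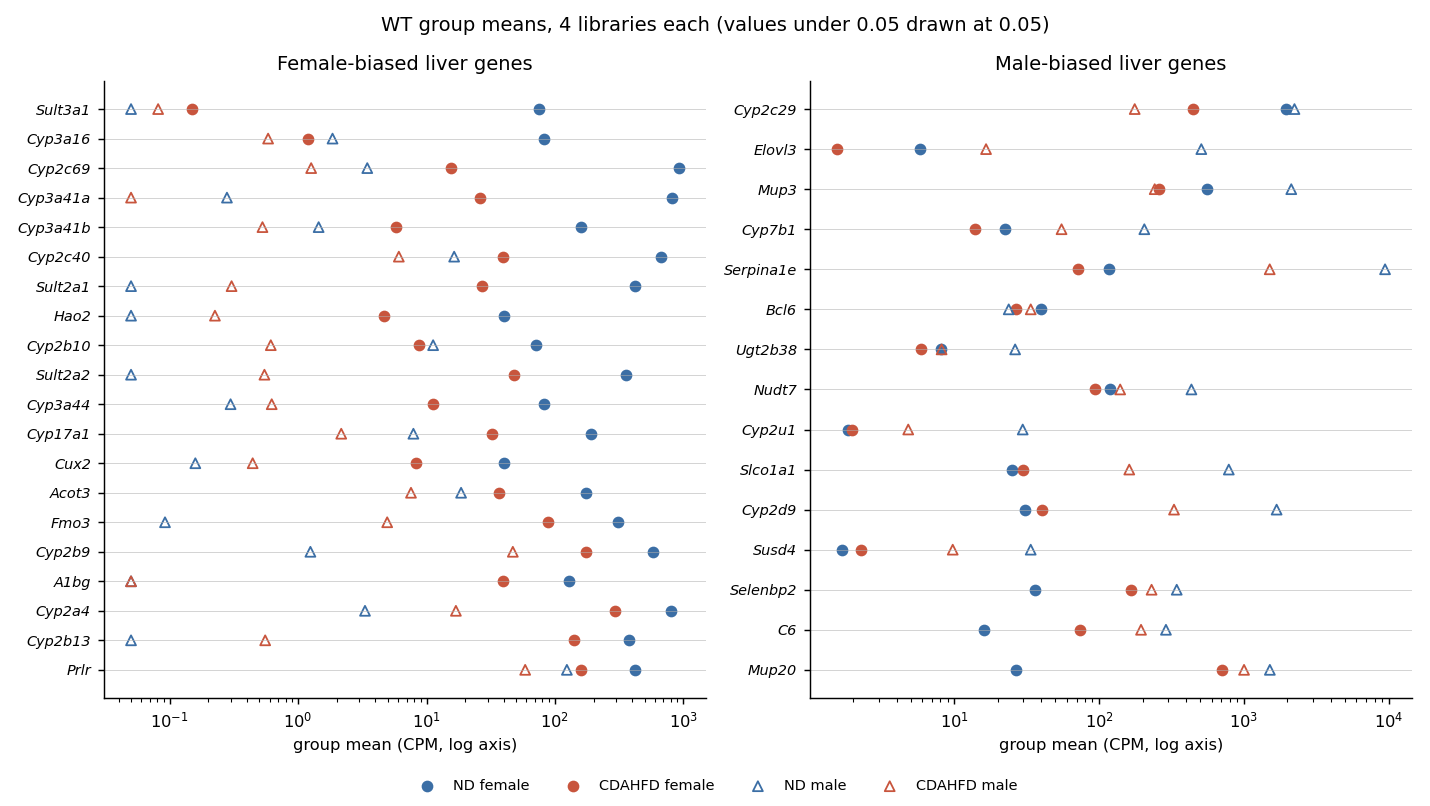
Group means (CPM, log axis, values under 0.05 drawn at 0.05) of 20 female-biased genes (left) and of the 15 tested male-biased genes (right) in WT females (filled circles) and WT males (open triangles) on ND (blue) and CDAHFD (red), with 4 libraries behind each mean. In the left panel the red circle lies left of the blue circle in every row and right of the red triangle in 20 of 20, and in the right panel the red circles of Mup20, C6 and Selenbp2 lie right of the blue circles, between those and the male means.

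The WT males of the series give the male level of these genes, in a joint fit over 32 libraries in which 136 of 14020 genes (0.97%) had a diet effect that differed between the sexes. For the female-biased list the mean on CDAHFD was still higher in females than in males for 20 of 20 genes, and for the male-biased list this held for 2 of 20. Mup20 in males was 1513 ± 1006 CPM on ND and 1003 ± 243 CPM on CDAHFD, and its change was larger in females by 5.29, SE 0.51, adjusted p = 3.98e-08. Cyp2b9 moved in opposite directions, since males had 1.25 ± 1.44 CPM on ND and 47.01 ± 23.8 CPM on CDAHFD (log2 change 5.33, adjusted p = 3.22e-11). The female minus male difference was -7.08, SE 0.54, adjusted p = 1.36e-10. C6 in males was 289.9 ± 65.6 CPM on ND and 195 ± 59.4 CPM on CDAHFD, with a difference of 2.81, SE 0.38, adjusted p = 2.49e-05.

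The axis of growth hormone itself was near the background, with 2 of 19 genes higher and 3 lower (26.3% called, against 24.1% over all genes). Ghr, its receptor, stood at 588, 645, 679 and 631 CPM on ND and at 304, 296, 324 and 185 CPM on CDAHFD (log2 change -1.20, SE 0.16, adjusted p = 1.23e-05). Prlr, the prolactin receptor, which is female-biased, fell from 425 ± 51.2 to 165 ± 30.95 CPM (log2 change -1.37, SE 0.17, adjusted p = 7.18e-06). Socs3, a feedback inhibitor of cytokine signalling, rose (1.28, adjusted p = 0.0153), with replicate 4 the highest CDAHFD library at 20.8 CPM. Its call was lost without ND replicate 3 or CDAHFD replicate 4 (adjusted p = 0.0501 to 0.0932), and that of Igf1, the growth factor that growth hormone induces (-0.49, adjusted p = 0.032), without ND replicate 2 or CDAHFD replicate 1, 2 or 4 (adjusted p = 0.0767 to 0.143) and with library size alone (adjusted p = 0.432). Of 29 liver transcription factors and nuclear receptors 8 fell and 1, Pparg, rose (median -0.23, or 0.10 with library size alone). The share called there was 31%. Klf15, a factor of fasting metabolism, fell from 236 ± 51.3 to 107 ± 22.4 CPM (log2 change -1.13, SE 0.17, adjusted p = 4.86e-05). Hnf4a, a master factor of hepatocytes, was at 810.0 ± 236 and 542 ± 44.2 CPM (log2 change -0.58, SE 0.16, adjusted p = 0.0114), with a call lost without ND replicate 2 (adjusted p = 0.0606) and with library size alone (adjusted p = 0.247). Nr1i3, the nuclear receptor CAR that induces Cyp2b10, was not called (-0.46, adjusted p = 0.066), but was without a low-count filter (adjusted p = 0.0253) and without CDAHFD replicate 2 (adjusted p = 0.0138).

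Most genes of amino acid breakdown fell. Of 33 genes of the urea cycle and amino acid catabolism, 27 fell and 1 rose (median -0.78). Cps1, the first enzyme of the urea cycle, stood at 2576, 2641, 3267 and 3297 CPM on ND and at 1641, 1399.5, 1523 and 1297 CPM on CDAHFD (log2 change -1.01, SE 0.18, adjusted p = 0.000301). Afmid, a kynurenine pathway enzyme, had the largest fall (-2.06, adjusted p = 5.94e-06), and Glul, glutamine synthetase, was at 1122 ± 90.2 and 1181 ± 234 CPM and not called (0.07, adjusted p = 0.787). Of 35 glucose genes 12 fell and 6 rose (median -0.39, or -0.24 without ND replicate 3). G6pc, the last enzyme of glucose release, stood at 498, 730.2, 414 and 371 CPM on ND and at 51.1, 172, 74.4 and 111 CPM on CDAHFD (log2 change -2.30, SE 0.31, adjusted p = 1.21e-05). Pck1, an early enzyme of glucose synthesis, fell from 4441 ± 1454 to 1789.7 ± 1014 CPM (log2 change -1.31, SE 0.34, adjusted p = 0.0064), while Pkm, the pyruvate kinase of most other tissues and of leukocytes, rose from 23.4 ± 4.18 to 69.3 ± 7.35 CPM (log2 change 1.57, SE 0.16, adjusted p = 5.51e-07).

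Of 75 subunits of the respiratory chain, 25 fell and 0 rose, but the values were small (median -0.35). The number called was 10 without ND replicate 3 and 28 without ND replicate 2, the lowest and highest over the 8 libraries left out singly, 42 without replicate 3 of the Cyp2b-null females on CDAHFD, which enter the fit, and 3 with library size alone. Atp5a1, a subunit of ATP synthase, was at 647 ± 54.7 and 505 ± 64.8 CPM (log2 change -0.36, SE 0.12, adjusted p = 0.0337), and Atp5b, the partner subunit, was not called (-0.26, adjusted p = 0.123). The largest fall was that of Cox7a1 (-1.44, adjusted p = 0.035). The call of Atp5a1 was lost without ND replicate 3 or 4 or CDAHFD replicate 2 or 4 (adjusted p = 0.0663 to 0.123), and also with library size alone (adjusted p = 0.841), without a low-count filter (adjusted p = 0.103) and with only the 8 libraries compared (adjusted p = 0.0689). That of Cox7a1 was lost without ND replicate 1 or 4 or CDAHFD replicate 2, 3 or 4 (adjusted p = 0.0564 to 0.118) and with library size alone (adjusted p = 0.0762). Both mitochondrial ribosomal RNAs fell, mt-Rnr1 from 803 ± 257 to 252 ± 29.6 CPM (-1.67, adjusted p = 2.15e-06) and mt-Rnr2 from 1077 ± 302 to 401 ± 96.8 CPM (-1.43, adjusted p = 3.01e-05).

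Hepatocytes near the portal vein and near the central vein express different genes. Of 17 periportal genes, 11 fell and 2 rose (median -0.49), and of 18 pericentral and Wnt target genes, 4 fell and 1 rose (median -0.074). The share of the pericentral list called, 27.8%, was near the 24.1% over all genes. The pericentral median ran from -0.27 without ND replicate 3 to 0.045 without CDAHFD replicate 4, so its sign was not stable. The difference between the lists was not tested, and several periportal genes also stand in the urea and glucose lists. Etnppl, a periportal phospholyase, fell from 146 ± 8.07 to 48.8 ± 9.15 CPM (log2 change -1.59, SE 0.16, adjusted p = 3.6e-07) and Hal, histidine ammonia lyase, by 1.22 on the log2 scale (adjusted p = 2.18e-05). Rgn, a calcium-binding protein of the pericentral list, fell from 1759.6 ± 186 to 893 ± 137 CPM (log2 change -0.98, SE 0.14, adjusted p = 2.5e-05), and Rhbg, an ammonium transporter, rose from 9.88 ± 4.07 to 21.9 ± 6.73 CPM (log2 change 1.14, SE 0.27, adjusted p = 0.00382). Axin2, a Wnt target, was not called (0.46, adjusted p = 0.444). Cyp2f2, a periportal Cyp (-0.39, adjusted p = 0.0308), was called but lost the call without ND replicate 1, 2 or 4 or CDAHFD replicate 1, 2 or 4 (adjusted p = 0.0518 to 0.107), and also with library size alone (adjusted p = 0.723), without a low-count filter (adjusted p = 0.0734) and with only the 8 libraries compared (adjusted p = 0.0584). Dpt, a matrix protein of fibroblasts that stands in the periportal list, rose from 4.08 ± 1.56 to 16.99 ± 5.31 CPM (log2 change 2.10, SE 0.33, adjusted p = 8.56e-05). Of 18 clock genes 4 fell and 1, Bhlhe41, a repressor in the clock, rose from 0.87 ± 0.406 to 8.58 ± 3.62 CPM (log2 change 3.09, SE 0.51, adjusted p = 0.000129). The share of clock genes called, 27.8%, was also near the 24.1% over all genes. Arntl and Nr1d1, core clock factors, were not called (-0.72, adjusted p = 0.317 and -0.15, adjusted p = 0.632), and Cry2 (-0.62, adjusted p = 0.0107) lost its call without CDAHFD replicate 4 (adjusted p = 0.0501) and with library size alone (adjusted p = 0.2).

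Genes of lipid-associated macrophages rose. Of 21 tested, 17 rose and 0 fell (median 1.95). The rises include Gpnmb, whose direction was set by the filter. Cd63, a lysosomal membrane protein, stood at 3.0, 1.17, 4.41 and 2.77 CPM on ND and at 20.7, 26.4, 20.7 and 28.5 CPM on CDAHFD (log2 change 3.06, SE 0.25, adjusted p = 2.71e-08). Lgals3, galectin 3, rose by 3.93 on the log2 scale (adjusted p = 6.69e-10) and was named after its values were seen. Trem2, the receptor that defines these cells, is listed at 0 in all 32 libraries, as are 15 genes of the lists and marker sets in all, and was not tested. Of 38 lysosomal genes 13 rose and 3 fell (median 0.28). Ctsd, a lysosomal protease, rose from 374 ± 38.8 to 781 ± 88.4 CPM (log2 change 1.06, SE 0.15, adjusted p = 2.68e-05) and Lamp1, the lysosomal membrane protein, from 595 ± 47.7 to 809.5 ± 18.4 CPM (log2 change 0.44, SE 0.11, adjusted p = 0.00404), while Ctsc, a dipeptidase, fell (-0.53, adjusted p = 0.00948). Lamp1 was not called without a low-count filter (adjusted p = 0.0742), nor Ctsc with library size alone (adjusted p = 0.297).

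Chemokines and their receptors rose in 16 of 27 genes and fell in 2 (median 1.67), with Cxcl13 as the largest fall. The rises include Ccl2 and Ccl4, whose direction was set by the filter. Ccl2, which draws monocytes, had at most 3 counts in any ND library and 6.02, 8.004, 5.53 and 10.5 CPM on CDAHFD, with a pooled ratio of 13.97 (95% exact interval 7.17 to 31.1). Ccl4, another leukocyte attractant, had 1 count over the ND libraries and 2.45, 2.91, 2.66 and 4.03 CPM on CDAHFD, with a pooled ratio of 50.5 (95% exact interval 8.72 to 2026). Cxcl10, the interferon-induced chemokine for T cells, stood at 4.60, 3.51, 4.41 and 2.94 CPM on ND and at 24.3, 12.4, 13.3 and 21.1 CPM on CDAHFD (log2 change 2.21, SE 0.27, adjusted p = 4.59e-06). Its upstream sequence is printed since it holds the interferon-stimulated response element (ISRE), searched on both strands as GAAA, any 2 bases and GAAA. It covers chr5:92348890-92349139 on the minus strand (RefSeq, GRCm38.p6), and the match in capitals begins 213 bases before the start.

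Cxcl10: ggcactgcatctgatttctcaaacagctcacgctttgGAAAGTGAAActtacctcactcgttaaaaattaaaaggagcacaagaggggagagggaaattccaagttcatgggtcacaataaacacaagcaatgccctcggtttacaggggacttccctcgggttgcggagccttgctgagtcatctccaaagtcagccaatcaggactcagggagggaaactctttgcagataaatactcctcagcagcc

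The ISRE letters stood in 3.04% of all promoters of this length, in 3.4% of those of genes called higher and in 2.45% of those called lower. In the interferon response list, 12 of 28 members with a promoter in the table held them (42.9%). Of 36 interferon response genes tested, 16 rose and 0 fell (median 0.58). Oas1a, a sensor of viral RNA, stood at 2.40, 3.12, 3.73 and 6.93 CPM on ND and at 11.2, 19.2, 12.9 and 21.9 CPM on CDAHFD (log2 change 1.94, SE 0.31, adjusted p = 7.89e-05). Isg15, a ubiquitin-like effector, was at 10.1 ± 2.20 and 16.8 ± 7.85 CPM and not called (0.77, adjusted p = 0.0621), but it was with library size alone (adjusted p = 0.00491) and without a low-count filter (adjusted p = 0.00917) and without CDAHFD replicate 1 or 3 (adjusted p = 0.0257 to 0.0401).

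Of 38 interleukin, TNF and inflammasome genes 20 rose and 2 fell (median 0.74). Il1b, the inflammasome cytokine, was at 2.80, 0.39, 2.37 and 0.866 CPM on ND and 3.35, 3.64, 2.05 and 3.22 CPM on CDAHFD, close to the floor, and was not called (0.88, adjusted p = 0.245), and Tnf is listed at 0. Il21r, a lymphocyte receptor, rose with a pooled ratio of 12.7 (95% exact interval 4.08 to 63.8), and Il1rap, a subunit of the interleukin 1 receptor, fell from 178 ± 18.3 to 125 ± 20.8 CPM (log2 change -0.51, SE 0.14, adjusted p = 0.00872), a call lost with library size alone (adjusted p = 0.305). Toll-like receptors and adaptors rose in 12 of 23 and fell in 1. Tlr2, which binds bacterial lipoproteins, stood at 2.40, 2.73, 2.03 and 1.21 CPM on ND and at 14.9, 17.9, 13.9 and 18.05 CPM on CDAHFD (log2 change 3.01, SE 0.23, adjusted p = 1.03e-08). Cd14, the co-receptor for endotoxin, rose from 2.35 ± 1.34 to 21.3 ± 9.41 CPM (log2 change 3.05, SE 0.35, adjusted p = 2.27e-06). Tirap, an adaptor, was the member that fell (-0.64, adjusted p = 0.0169), and its call was lost without ND replicate 1 or CDAHFD replicate 4 (adjusted p = 0.0654 to 0.0763) and with library size alone (adjusted p = 0.239). Of 11 MHC class II genes 9 rose (median 1.41). Cd74, the invariant chain, stood at 106, 161, 142 and 76.2 CPM on ND and at 238, 307, 300.3 and 395 CPM on CDAHFD (log2 change 1.36, SE 0.23, adjusted p = 0.000187). Ctss, the protease that cuts it, rose from 50.5 ± 10.3 to 215 ± 29.4 CPM (log2 change 2.10, SE 0.20, adjusted p = 2.24e-07) and H2-Aa, an antigen-presenting chain, from 25.04 ± 9.31 to 64.4 ± 13.1 CPM (log2 change 1.41, SE 0.22, adjusted p = 7.13e-05).

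Of 35 collagens and matrix proteins, 25 rose and 1 fell (median 1.15). Col1a1, a chain of collagen I, stood at 2.80, 3.51, 17.3 and 5.37 CPM on ND and at 49.1, 69.1, 84.03 and 75.4 CPM on CDAHFD (log2 change 3.35, SE 0.34, adjusted p = 5.31e-07), and Col3a1, the chain of collagen III, at 19.2, 19.1, 29.8 and 25.6 CPM and 169, 219, 256 and 238 CPM (log2 change 3.23, SE 0.20, adjusted p = 4.22e-10). ND replicate 3 was the highest ND library for Col1a1 but stayed below every CDAHFD library. Tnc, tenascin C of wounds, rose from 0.519 ± 0.598 to 5.43 ± 1.99 CPM (3.39, adjusted p = 3.42e-05), and Col27a1, a minor fibrillar collagen, fell from 12.6 ± 3.99 to 4.90 ± 1.48 CPM (log2 change -1.38, SE 0.27, adjusted p = 0.000678).

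Proteases, their inhibitors and cross-linkers rose in 21 of 29 and fell in 1 (median 1.99). Timp1, an inhibitor of matrix proteases, had 3 counts over the ND libraries and 5.58, 5.58, 4.92 and 7.41 CPM on CDAHFD, with a pooled ratio of 32.5 (95% exact interval 10.9 to 160.0). Mmp13, a collagenase, was highest in CDAHFD replicate 4 at 14.2 CPM (5.45, adjusted p = 1.48e-06) and was named after its values were seen. Mmp19, a protease of many tissues, was the gene that fell, from 101 ± 13.4 to 76.3 ± 6.06 CPM (-0.40, adjusted p = 0.0266), a call that was lost without ND replicate 1 or 3 or CDAHFD replicate 1 (adjusted p = 0.0625 to 0.105), and also with library size alone (adjusted p = 0.669) and without a low-count filter (adjusted p = 0.0608). The TGF-beta family, which drives collagen synthesis, was near the background, with 7 of 34 higher and 2 lower (median 0.20, between -0.028 and 0.21 without single libraries). Tgfb1 stood at 12.4, 10.1, 5.42 and 9.52 CPM on ND and at 18.7, 24.01, 27.7 and 20.3 CPM on CDAHFD (log2 change 1.24, SE 0.22, adjusted p = 0.000206). Acvrl1, a receptor of the family, rose from 3.48 ± 0.844 to 8.16 ± 0.688 CPM (log2 change 1.22, SE 0.30, adjusted p = 0.00458). Ltbp2, which binds fibrillin, rose with a pooled ratio of 12.3 (95% exact interval 5.42 to 34.3), and Bmp2, a ligand made by endothelium, fell from 24.3 ± 5.01 to 11.3 ± 2.95 CPM (log2 change -1.10, SE 0.19, adjusted p = 0.000218).

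**Figure D5:**
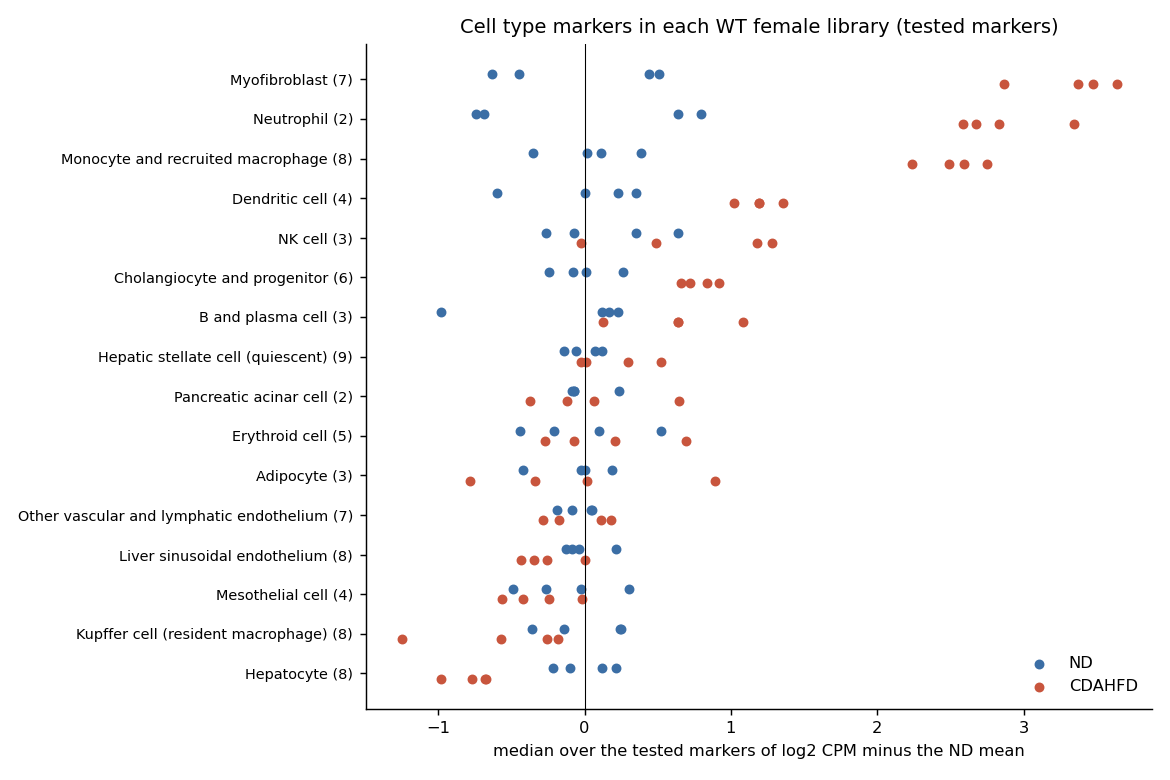
For each cell type (number of tested markers in brackets), the median over its markers of log2 CPM minus the ND mean, with 1 point per library for the 4 ND (blue) and 4 CDAHFD (red) libraries. Myofibroblast, neutrophil, monocyte, dendritic cell and cholangiocyte points lie higher on CDAHFD without overlap, hepatocyte points lie lower without overlap, and the other cell types drawn, those with at least 2 tested markers, overlap. Of the 4 tested dendritic cell markers only 1 was called, and of the 6 tested cholangiocyte markers 2. The neutrophil points rest on 2 of 9 markers, which were near 0 on ND and passed the filter through the CDAHFD libraries. The monocyte and myofibroblast rows also hold such markers.

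Markers of several cell types moved with the diet, and their part in the results above was not tested. Of 8 hepatocyte markers 7 fell, and their sum was 131745 to 199331 CPM on ND and 78992 to 104638 CPM on CDAHFD. Of 8 markers of monocytes and recruited macrophages 8 rose (median 2.58, or 2.32 with Chil3 at its lower bound), and their sum was 86.8 to 141 CPM on ND and 211 to 275 CPM on CDAHFD. Chil3, Cx3cr1, Ccr2 and Itgam were low on ND and passed the filter through the CDAHFD libraries, so the filter favoured their rise. Itgam, an integrin of myeloid cells, stood at 1.80, 1.17, 2.71 and 1.73 CPM on ND and at 11.2, 10.4, 13.3 and 11.6 CPM on CDAHFD (log2 change 2.64, SE 0.32, adjusted p = 3.91e-06), and Ly6c2, a monocyte antigen, rose (1.82, adjusted p = 0.0118), with a call that was lost without ND replicate 1 or 4 (adjusted p = 0.0519 to 0.0632). The Kupffer cell markers split, with 2 of 8 higher and 3 lower. In the joint scaling of the 32 libraries, C1qa was at 64.1 ± 9.91 CPM on ND and 124 ± 19.7 CPM on CDAHFD in these females (log2 change 0.96). Cd5l was at 138 ± 43.2 and 212 ± 26.8 CPM there (log2 change 0.62). Timd4, a receptor for dying cells on resident Kupffer cells, stood at 11.2, 10.5, 9.83 and 6.93 CPM on ND and at 1.12, 0.728, 0 and 0.322 CPM on CDAHFD (log2 change -4.15, SE 0.43, adjusted p = 5.86e-07). Cd163, the hemoglobin scavenger receptor, stood at 27.8, 50.7, 24.4 and 25.5 CPM and 7.58, 2.43, 0.205 and 0.483 CPM (log2 change -3.64, SE 0.49, adjusted p = 1.21e-05). The Kupffer lectin Clec4f was at 159.9 ± 26.9 and 111 ± 30.2 CPM and not called (-0.53, adjusted p = 0.0737). It was called without a low-count filter (adjusted p = 0.00767) and without CDAHFD replicate 2 (adjusted p = 0.0479). Adgre1, the pan-macrophage antigen F4/80, stands in the monocyte list. It rose from 25.5 ± 5.13 to 44.3 ± 9.85 CPM (log2 change 0.82, SE 0.17, adjusted p = 0.00124). The sum of the Kupffer markers, 390 to 605 CPM on ND and 448 to 581 CPM on CDAHFD, overlapped between diets.

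All 7 tested myofibroblast markers rose (median 3.35), with a sum of 32.7 to 65.8 CPM on ND and 276 to 402 CPM on CDAHFD, among them Pdgfrb, the PDGF receptor (0.92, adjusted p = 0.00338), and Cthrc1 is listed at 0. Acta2 and Timp1 were near 0 on ND and passed the filter through the CDAHFD libraries, so that their direction was set by the filter. Acta2, the smooth muscle actin, stood at 0, 0, 0.678 and 0.693 CPM on ND and at 7.58, 4.61, 6.35 and 9.18 CPM on CDAHFD (log2 change 4.16, SE 0.51, adjusted p = 4.15e-06). Of 9 markers of quiescent stellate cells, 1 rose and 1 fell. Lrat, which stores vitamin A (0.33, adjusted p = 0.356), and Reln, reelin (0.11, adjusted p = 0.677), were not called, and Ecm1, a matrix protein that holds TGF-beta inactive, fell from 154 ± 13.1 to 77.00 ± 5.97 CPM (log2 change -1.0, SE 0.16, adjusted p = 8.43e-05). Among 6 tested cholangiocyte and progenitor markers 2 rose. They were the factor Sox9 (1.58, adjusted p = 0.00134) and Spp1, osteopontin, which macrophages also make (1.95, adjusted p = 2.36e-06). The sum of all 9 listed cholangiocyte and progenitor markers was 47.1 to 78.0 CPM on ND and 129 to 227 CPM on CDAHFD. Sinusoidal endothelium had 0 of 8 markers higher and 3 lower, and the general endothelial marker Pecam1 was not called (-0.34, adjusted p = 0.179). Lymphocytes were thinly covered, since 1 of 9 T cell markers passed the filter. This was Themis, with at most 3 counts in any ND library and a pooled ratio of 24.1 (95% exact interval 10.9 to 66.6). Of 9 neutrophil markers 2 passed the filter, S100a8 and S100a9. These markers and Themis were near 0 on ND and passed through the CDAHFD libraries alone, so that their direction was set by the filter. S100a9 stood at 1.0, 0, 0.678 and 0 CPM on ND and 3.12, 5.09, 3.89 and 7.41 CPM on CDAHFD, and Ly6g is listed at 0. Of 5 red cell markers 1 rose, Alas2, the heme synthesis enzyme of red cell precursors (1.62, adjusted p = 1.36e-05), while the globin genes were not called.

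Acute phase and plasma proteins, which hepatocytes secrete, split evenly, with 10 of 31 higher and 10 lower. Saa1, serum amyloid A, stood at 27.2, 31.95, 50.2 and 28.1 CPM on ND and at 159, 278, 241 and 625 CPM on CDAHFD (log2 change 3.26, SE 0.38, adjusted p = 2.56e-06), with replicate 4 the highest. Alb, albumin, stood at 107201, 163974, 128972 and 117055 CPM on ND and at 87981, 72988, 79817 and 63399 CPM on CDAHFD (log2 change -0.77, SE 0.17, adjusted p = 0.00159). Serpina1c, an antitrypsin, had the largest fall (-1.37, adjusted p = 1.23e-05), and reads of the Saa and Serpina1 families may be split between copies. Of 44 complement and coagulation genes 14 fell and 9 rose (median -0.12, or 0.21 with library size alone and -0.039 without ND replicate 2). C3, the central complement protein, was at 10924 ± 1710.0 and 10297 ± 1567 CPM and not called (-0.09, adjusted p = 0.708). F2, prothrombin, fell from 2215 ± 66.5 to 1585 ± 72.3 CPM (log2 change -0.48, SE 0.12, adjusted p = 0.00661) and Mbl2, a lectin that starts complement, by 0.98 on the log2 scale (adjusted p = 4.06e-05). The call of F2 was lost with library size alone (adjusted p = 0.252). C5ar1, the receptor on myeloid cells for a complement fragment, rose from 1.56 ± 0.505 to 16.6 ± 6.93 CPM (log2 change 3.46, SE 0.39, adjusted p = 1.98e-06).

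Of 26 chaperones and genes of the unfolded protein response 9 fell and 0 rose (median -0.40). The number called was 4 without CDAHFD replicate 2 and 5 without ND replicate 1 or CDAHFD replicate 4, and the median was -0.11 without ND replicate 1. Herpud1, which helps to clear misfolded proteins, fell from 467 ± 182 to 203 ± 57.8 CPM (log2 change -1.20, SE 0.26, adjusted p = 0.00152). Hspa5, the chaperone BiP, was at 1990.3, 1131, 1096 and 729 CPM on ND and 824, 657, 843 and 673 CPM on CDAHFD (-0.72, adjusted p = 0.03), with a call lost without ND replicate 1 or CDAHFD replicate 2 or 4 (adjusted p = 0.0809 to 0.201) and with library size alone (adjusted p = 0.191). Ddit3, the stress factor CHOP, was not called (0.40, adjusted p = 0.221), but was with library size alone (adjusted p = 0.0162). Of 20 genes of the integrated stress response and amino acid supply 10 rose and 1 fell (median 0.75, or 0.33 with only the 8 libraries compared and 1.15 without CDAHFD replicate 1). Fgf21, a hormone of starved or stressed liver, stood at 1.80, 2.34, 0 and 0.346 CPM on ND and at 11.8, 7.03, 8.40 and 14.02 CPM on CDAHFD (log2 change 3.27, SE 0.69, adjusted p = 0.00126). Slc7a11, the cystine importer, had 1 count over the ND libraries and 2.01, 3.40, 2.66 and 1.93 CPM on CDAHFD. Its pooled ratio was 39.7 (95% exact interval 6.79 to 1601). Fgf21 and Slc7a11 were low on ND and passed the filter through the CDAHFD libraries, so the filter favoured their rise. Gdf15, a hormone of cell stress, was called (0.96, adjusted p = 0.0424) but lost the call without ND replicate 1, 2, 3 or 4 or CDAHFD replicate 2, 3 or 4 (adjusted p = 0.0512 to 0.169). Targets of NRF2 and antioxidant enzymes rose in 9 of 27 and fell in 3 (median 0.16). Gpx3, a secreted peroxidase, rose from 3.84 ± 1.48 to 20.8 ± 7.68 CPM (log2 change 2.40, SE 0.31, adjusted p = 9.45e-06) and Cbr1, a carbonyl reductase, fell (-0.83, adjusted p = 0.00163). Nqo1 and Gclc, the standard reporters of NRF2, were not called (0.49, adjusted p = 0.0608 and 0.22, adjusted p = 0.461), though Nqo1 was with library size alone (adjusted p = 0.00229) and without ND replicate 3 (adjusted p = 0.0167).

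Cell cycle genes rose in 20 of 32 and fell in 1 (median 1.49). The rises include genes near 0 on ND that passed the filter through the CDAHFD libraries, among them Ccnb2, Aurkb and Cdc20. Mki67, the proliferation antigen, stood at 3.80, 3.90, 3.73 and 2.60 CPM on ND and at 19.4, 20.4, 28.1 and 16.6 CPM on CDAHFD (log2 change 2.61, SE 0.26, adjusted p = 4.38e-07). Cdc20, an activator of mitotic exit, had the largest change (3.98, adjusted p = 4.09e-06), and Tk1, thymidine kinase, was the gene that fell, from 33.2 ± 6.29 to 13.96 ± 1.52 CPM (log2 change -1.26, SE 0.21, adjusted p = 0.000139). Ccnd1, cyclin D1, rose (1.0, adjusted p = 0.0133), with a call that was lost without ND replicate 3 or 4 or CDAHFD replicate 1 (adjusted p = 0.0524 to 0.0558). Of 31 p53 targets and cell death genes 17 rose and 1 fell (median 0.68). Cdkn1a, the inhibitor p21, was at 0.8, 17.1, 0 and 1.39 CPM on ND and 13.8, 16.3, 15.8 and 41.2 CPM on CDAHFD (log2 change 2.50, SE 0.63, adjusted p = 0.00586), where ND replicate 2 lay within the CDAHFD range and CDAHFD replicate 4 above all. Phlda3, a p53 target, rose from 0.611 ± 0.874 to 10.99 ± 1.71 CPM (log2 change 3.79, SE 0.44, adjusted p = 2.66e-06) and Mdm2, the inhibitor of p53, by 0.68 on the log2 scale (adjusted p = 0.00571). Annexins and S100 proteins rose in 12 of 19 and fell in 1, S100a1 (-0.55, adjusted p = 0.00612), a calcium sensor whose call was lost with library size alone (adjusted p = 0.211). Anxa1, which limits inflammation, rose from 3.97 ± 2.36 to 23.6 ± 4.31 CPM (log2 change 2.67, SE 0.32, adjusted p = 2.74e-06).

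Hepcidin, the hormone that blocks iron export, is encoded by Hamp, and mice also carry its near copy Hamp2. Hamp2 stood at 349, 241, 1143 and 805 CPM on ND and at 12.5, 52.1, 23.8 and 6.12 CPM on CDAHFD (log2 change -4.77, SE 0.56, adjusted p = 2.68e-06), and Hamp at 1144, 617, 1074 and 628 CPM and 478, 372, 536 and 603 CPM (log2 change -0.80, SE 0.29, adjusted p = 0.0462). Every CDAHFD library was below every ND library for both genes, but the margin for Hamp was small and its call was lost without ND replicate 1 or 3 or CDAHFD replicate 1, 2 or 3 (adjusted p = 0.0673 to 0.15) and with library size alone (adjusted p = 0.171). In WT males Hamp2 was 10.99 ± 5.29 CPM on ND and 3.82 ± 1.70 CPM on CDAHFD, and the female minus male difference of its diet effect was -3.22, SE 0.81, adjusted p = 0.0392. The upstream sequences of both genes are printed because the genes are near copies, so that reads may be split between them, while their falls differ in size. They lie at chr7:30944030-30944279 (Hamp) and chr7:30924182-30924431 (Hamp2), both on the minus strand (RefSeq, GRCm38.p6). Capitals mark the AP-1 letters TGANTCA, which begin 87 bases before the start of Hamp and 84 before that of Hamp2.

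Hamp: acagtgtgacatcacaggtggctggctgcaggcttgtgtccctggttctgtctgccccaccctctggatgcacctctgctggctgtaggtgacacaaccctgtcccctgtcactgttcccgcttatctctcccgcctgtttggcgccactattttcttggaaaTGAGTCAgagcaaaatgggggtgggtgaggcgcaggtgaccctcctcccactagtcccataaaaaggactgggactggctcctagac
Hamp2: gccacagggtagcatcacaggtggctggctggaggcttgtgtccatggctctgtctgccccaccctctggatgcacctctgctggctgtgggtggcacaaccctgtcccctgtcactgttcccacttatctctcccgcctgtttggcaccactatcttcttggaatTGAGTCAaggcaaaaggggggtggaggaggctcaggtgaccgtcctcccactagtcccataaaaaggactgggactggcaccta

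Of 247 aligned bases, 227 are identical between these sequences (91.9%). The other iron genes showed smaller values, with 3 of 16 tested higher and 4 lower, both hepcidin genes included. Tfrc, the transferrin receptor, was at 25.01 ± 4.85 and 21.6 ± 7.81 CPM and not called (-0.20, adjusted p = 0.766).

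The diet effect was also compared with that in Cyp2b-null females. Of 13226 genes, 0 had a diet effect that differed between the genotypes by edgeR (0% called), 830 had an unadjusted p under 0.05, and DESeq2 called 2. Across the sexes 136 genes differed, 42 with the more positive change in females and 94 with the more positive change in males, and 1439 had an unadjusted p under 0.05. The changes of Itgam, Ctss and Tgfb1 were smaller in females than in males. Itgam in males was 0.433 ± 0.0912 CPM on ND and 18.6 ± 6.24 CPM on CDAHFD (female minus male difference -2.76, SE 0.58, adjusted p = 0.0111), Ctss 15.6 ± 7.30 and 246 ± 70.00 CPM (-1.88, SE 0.36, adjusted p = 0.00493) and Tgfb1 3.97 ± 0.586 and 23.6 ± 3.59 CPM (-1.36, SE 0.32, adjusted p = 0.026). For these genes the ND level was lower in males than in females, and the ratio between the sexes was nearer to 1 on CDAHFD.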

How the data were processed

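RNA was extracted from livers with TRIzol and sequenced after library preparation with the NEB Next Ultra kit. The authors trimmed the reads with Trimmomatic, aligned them with GSNAP and counted them per gene with featureCounts of Subread on GRCm38.p6. Versions and the settings for strand and for reads with several matches are not given in the sources used here. The deposited values are raw counts of reads for 41585 gene entries, of which 4 symbols were duplicated and 27 had the form of a date, and 0 columns of counts were left out.

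Libraries were grouped by their labels. The counts of the 16 female libraries (4 groups of genotype and diet) were fitted together with edgeR 4.0.16 in R 4.3.3, with TMM scaling, the filterByExpr filter (a count of at least 10, a total of at least 15), the quasi-likelihood test and Benjamini-Hochberg adjustment over the 13226 genes kept. The difference between the genotypes was a contrast of this fit and that between the sexes a contrast of a fit over all 32 libraries in 8 groups. The scripts were first tested on simulated data. A ratio of pooled values has an exact 95% interval, which covers counting error only, as does the floor of 3 counts per library; a fold called at least is against that floor. Promoters and positions are those of RefSeq on GRCm38.p6, where 12572 tested genes had a match. An SD is over 4 libraries.

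The gene lists, the markers and the members were chosen with earlier results of these data known. Genes were named by rule: the first 2 of each list, the largest called rise and fall of each list and the 10 largest of all genes (mean of at least 1 CPM, no overlap of the diets), the cell type markers, the 3 Cyp2b genes, Xist and Ddx3y. Others are said to be named after their values were seen, and a few genes of the rule are not reported here. Alternatives were DESeq2 1.42.0, other scalings, filters and samples, a replicate block, and each WT female library left out.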

Additional observations from a re-analysis of the deposited data

Results flagged for a closer look

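For each named gene, the gap between the highest or lowest of 4 libraries and its nearest neighbour was set against the range of the group by Dixon's criterion. Of 342 groups (171 genes, each on ND and on CDAHFD), 23 had such a library, and chance gives about 1 in 20 groups. CDAHFD replicate 4 held 9 of the 11 on CDAHFD. It stood highest for Apoa4 (3438 CPM, next 1118), Cdkn1a (41.2, next 16.3), Cyp3a41a (81.4, next 11.7), Lcn2 (1046, next 292), Mmp13 (14.2, next 7.52), Nqo1 (25.5, next 18.4), Socs3 (20.8, next 10.9) and Sprr1a (19.98, next 6.79), and lowest for Rgn (689, next 952). The other libraries of this kind on CDAHFD were replicate 3 for the macrophage antigen Adgre1 (59.0 CPM, next 40.0) and replicate 1 for Tfrc (33.2, next 18.4).

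On ND, replicate 1 was highest for the clock gene Arntl (15.8 CPM, next 4.41), the chemokine Ccl4 (0.200, next 0) and Mup20 (49.6, next 22.6), and lowest for Isg15 (6.80, next 10.9) and Nr1i3 (119.6, next 143). Replicate 2 was highest for Cd163 (50.7 CPM, next 27.8), Cdkn1a (17.1, next 1.39) and Mttp (399.8, next 354). Replicate 3 was highest for Slc7a11 (0.339 CPM, next 0). Replicate 4 was highest for Adam8 (0.173 CPM, next 0) and Timp1 (0.519, next 0) and lowest for Mki67 (2.60, next 3.73). The values of Adam8, Ccl4, Slc7a11 and Timp1 are at or below the floor of 3 counts, and meet the criterion by themselves because the other ND libraries were at 0.

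The diet effect differed between WT females and WT males for 19 named genes, by the edgeR contrast of the difference, with adjusted p from 1.36e-10 (Cyp2b9) to 0.0392 (Hamp2). The female minus male difference on the log2 scale was above 0 for Mup20 (5.29), C6 (2.81), Selenbp2 (2.77), Cyp2d9 (2.75), Alas2 (2.37), Mup3 (2.05) and Cyp2c29 (1.55). It was below 0 for Cyp2b9 (-7.08), Cyp3a16 (-4.47), Cyp2c69 (-4.35), Hamp2 (-3.22), Itgam (-2.76), Ctss (-1.88), Ccnd1 (-1.59), Tgfb1 (-1.36), Pkm (-1.30), Ctsc (-1.0) and Glul (-0.96). For Sult3a1 the fitted difference was -11.02, a value that depends on the prior count because males were at or near 0.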

How the results depend on the processing

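Depth limits what was seen, since genes under about 1 CPM have a few counts per library, and lymphocyte and neutrophil markers mostly failed the filter. CDAHFD replicate 4 weighed most on the number of called genes, which was 2467 without it and up to 2983 without other single WT female libraries. Without Cyp2b-null CDAHFD female replicate 3, which shares the estimate of the spread, 3935 genes were called. DESeq2 called 3304, RLE factors gave 3204, only the 8 libraries compared 3168 of 12362 tested, no filter 3416 of 25490 and a filter at 1 CPM 3303 of 14826. Of 142 called named genes, 21 lost the call without at least 1 single WT female library and 19 under another setting. The causes of the changes below were not tested.

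With library size alone, 3910 genes were called higher and 491 lower. The list medians, all shifted upwards, then were -0.82 for fatty acid synthesis, -1.17 for cholesterol synthesis, 0.15 for fatty acid oxidation, -0.20 for lipoproteins, -0.23 for choline and methionine, -0.20 for conjugating enzymes, 0.10 for transcription factors, 0.060 for the growth hormone axis, -0.080 for glucose, -0.46 for the urea cycle, -0.032 for the respiratory chain, 1.47 for collagens, 2.30 for proteases, 0.52 for the TGF-beta family, 2.27 for lipid-associated macrophages, 1.96 for chemokines, 1.05 for interleukins and TNF, 1.73 for MHC class II, 1.18 for Toll-like receptors, 0.21 for complement, -0.090 for ER chaperones, 0.48 for NRF2 targets, 1.80 for the cell cycle, 1.0 for p53 targets, 0.60 for lysosomes, 1.05 for annexins, -0.15 for periportal genes, -0.029 for the clock, 0.25 for iron and -1.21 for mitochondrially encoded genes. The numbers called became 8 for bile acids, 11 for choline, 18 for the urea cycle, 3 for the respiratory chain, 29 for interferon, 28 for lysosomes and 1 for the clock. The genes that changed sign were Apob (0.098), Atp5b (0.059), C3 (0.24), Dgat1 (0.075), Nr1d1 (0.17), Tfrc (0.12) and Xist (0.29).

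The difference between genotypes gave 2 genes with DESeq2, 46 without a filter and 1 with the filter at 1 CPM, and that between sexes 216, 469 and, with only the WT groups, 79. Without a filter the medians were -0.93 for fatty acid synthesis, 1.55 for proteases, 0.090 for the TGF-beta family and 1.69 for the cell cycle, with 11 genes called for fatty acid oxidation, 11 for male-biased genes, 8 for the growth hormone axis and 8 for the clock. The TGF-beta median was 0.11 with the filter at 1 CPM. With only the groups compared the medians were -0.81 for fatty acid synthesis, 0.030 for the TGF-beta family, 0.33 for the integrated stress response, 1.28 for the cell cycle and 0.54 for p53 targets.

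Without single libraries, the number called ran from 2 (CDAHFD replicate 4) to 6 for the clock, 4 (CDAHFD replicate 2) to 11 for ER chaperones, 3 (ND replicate 2 or CDAHFD replicate 4) to 7 for fatty acid oxidation, 4 to 8 (CDAHFD replicate 3) for the growth hormone axis, 3 (ND replicate 2 or CDAHFD replicate 4) to 8 for iron, 5 (ND replicate 2) to 10 for transcription factors, 3 (CDAHFD replicate 1) to 6 for pericentral genes, 10 (ND replicate 3) to 42 for the respiratory chain and 8 (CDAHFD replicate 4) to 15 for Toll-like receptors. It ran from 0 to 1 for the genotype difference and from 84 (ND replicate 3) to 145 for the sex difference. The medians ran from 0.54 to 0.89 for annexins, 1.11 (ND replicate 4) to 1.80 for chemokines, -0.51 to -0.11 (ND replicate 1) for ER chaperones, -1.24 to -0.97 for fatty acid synthesis, -0.23 to -0.034 (ND replicate 2) for fatty acid oxidation, 0.58 to 1.15 (CDAHFD replicate 1) for the integrated stress response, 0.61 to 0.87 for interleukins and TNF, -0.13 to -0.0086 (ND replicate 2) for iron, 1.81 to 2.13 for lipid-associated macrophages, 0.11 to 0.35 (ND replicate 1) for NRF2 targets, 0.59 to 0.76 for p53 targets and -0.028 (CDAHFD replicate 1) to 0.21 for the TGF-beta family. The genes not called whose sign changed were Arntl (-1.0 to 0.18), C3 (-0.17 to 0.0042), Cyp2d9 (-0.013 to 0.64), Cyp7a1 (-0.28 to 0.50), Glul (-0.072 to 0.16), Nr1d1 (-0.26 to 0.022), Reln (-0.050 to 0.22) and Xist (-0.33 to 0.17).

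The replicate numbers did not pair the libraries. Over 5000 genes, the correlations of the deviations of same-numbered ND and CDAHFD libraries were 0.065, -0.018, -0.203 and -0.173, and none correlated best with its own number. With the replicate block 3099 genes were called, of which 3010 were among the 3193, and Cyp7a1 changed sign to -0.036. Of the named genes, Cox7a1 (adjusted p = 0.0521) and Gdf15 (adjusted p = 0.0568) were then not called, and Isg15 (adjusted p = 0.0461) and Nr1i3 (adjusted p = 0.0422) were.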
